A study of Homo sapiens with 6 samples.

Results

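Condensins and type II topoisomerases are the main enzymes that shape chromosomes for cell division, and 10 genes encode them here: TOP2A and TOP2B for the topoisomerases, SMC2 and SMC4 for the core shared by both condensins, NCAPD2, NCAPG and NCAPH for condensin I, and NCAPD3, NCAPG2 and NCAPH2 for condensin II. They were found by their gene symbols among the 35268 named genes of the table, and all 10 were measured well above the filter on low values, a mean of at least 10 normalized counts. The cells were Rh30, an established line derived from a fusion-positive rhabdomyosarcoma, a childhood tumor of muscle-like cells driven by the fusion protein PAX3-FOXO1. mRNA was sequenced from 3 samples treated for 24 hours with 1 µM YK-4-279, a small molecule directed against ETS transcription factors, and from 3 samples given its vehicle, DMSO, for the same time. All 6 samples carry the line's own fusion, and there was a single cell line, dose and time. Nothing in the labels states that the samples came from separate cultures, so that the p-values measure the spread between these samples, which may be technical. A normalized count is the number of reads on a gene divided by a factor of its library.

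A type II topoisomerase cuts both strands of a DNA helix, passes another helix through the gap and seals the cut, which removes tangles between sister chromatids. TOP2A is made mostly in dividing cells and is a main component of mitotic chromosomes, while TOP2B is made in dividing and resting cells and acts at transcribed genes. Condensins are rings built on the ATPases SMC2 and SMC4 that extrude loops of DNA. Condensin I reaches the chromosomes after the nuclear envelope breaks down, and condensin II is nuclear through interphase. In each complex a kleisin (NCAPH or NCAPH2) closes the ring, and HEAT-repeat subunits (NCAPD2 and NCAPG, or NCAPD3 and NCAPG2) bind it.

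The labelled tumor type was borne out by its markers. The 10 rhabdomyosarcoma markers listed, among them MYOD1, MYOG, FGFR4 and PAX3, were all above the filter, with summed normalized counts of 82882 to 94003 in the DMSO libraries and 86932 to 91215 in the drug-treated libraries. CD68, a macrophage marker, was listed at 0 in every library, and the summed normalized counts of the endothelial and epithelial lists stayed at or below 90.0. The libraries held between 16724650 and 24677433 reads, and between 1546 and 25023 reads lay on each of the 10 genes in each library, so that counting error alone was at most 2.54% of a value. DMSO replicate 1 stood apart. It was the smallest library, its mean correlation with the others across genes was 0.989, against 0.992 to 0.993 for the rest, and its mitochondrial share of reads was 6.05%, where the rest had 4.74% to 5.03%. It was the highest DMSO library for 9 of the 10 genes, against 45.1% of all genes tested. The results on the 10 genes are therefore given with and without it.

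All 10 genes had a lower mean in drug-treated cells, and 6 of them fell at an adjusted p under 0.05 in limma: TOP2A, all 3 subunits particular to condensin I (NCAPD2, NCAPG and NCAPH), and NCAPD3 and NCAPG2 of condensin II. Of all 13930 genes tested, 3.41% were called in either direction, 2.15% lower and 1.26% higher. edgeR on the recovered reads also called 6 of the 10, against 1.86% of all genes called lower by it. The falls were moderate, from 16.4% for NCAPD2 to 27.0% for TOP2A. The median log2 fold change of the 10 genes was -0.29, beside -0.01 over all genes tested. In 9 of the 10 genes every drug-treated library lay below every DMSO library, which held for 15.1% of all genes tested. Bulk RNA does not separate a smaller share of cells in G2 and mitosis from less RNA per cell, and these cannot be told apart here.

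The calls depended on which libraries entered the fit. Without DMSO replicate 1 all 10 genes were called lower in limma, against 8.46% of all genes, and every drug-treated library lay below the remaining DMSO libraries in all 10, against 22.9% of all genes. Without drug-treated replicate 1 or 2, none of the 10 genes passed an adjusted p of 0.05 in limma. In both fits 9 of them had an unadjusted p under 0.05, but how many of all genes did was not counted. Without drug-treated replicate 3 only TOP2A passed the threshold (limma adjusted p = 0.0406). The number called over all genes in these fits fell to 19, 23 and 46, from 475 with 6 libraries. All 10 log2 fold changes stayed below 0 in each of these fits. A fit with the replicate number as a block called 3 of the 10 (TOP2A, NCAPG and NCAPH), against 0.725% of all genes called lower.

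**Figure D1:**
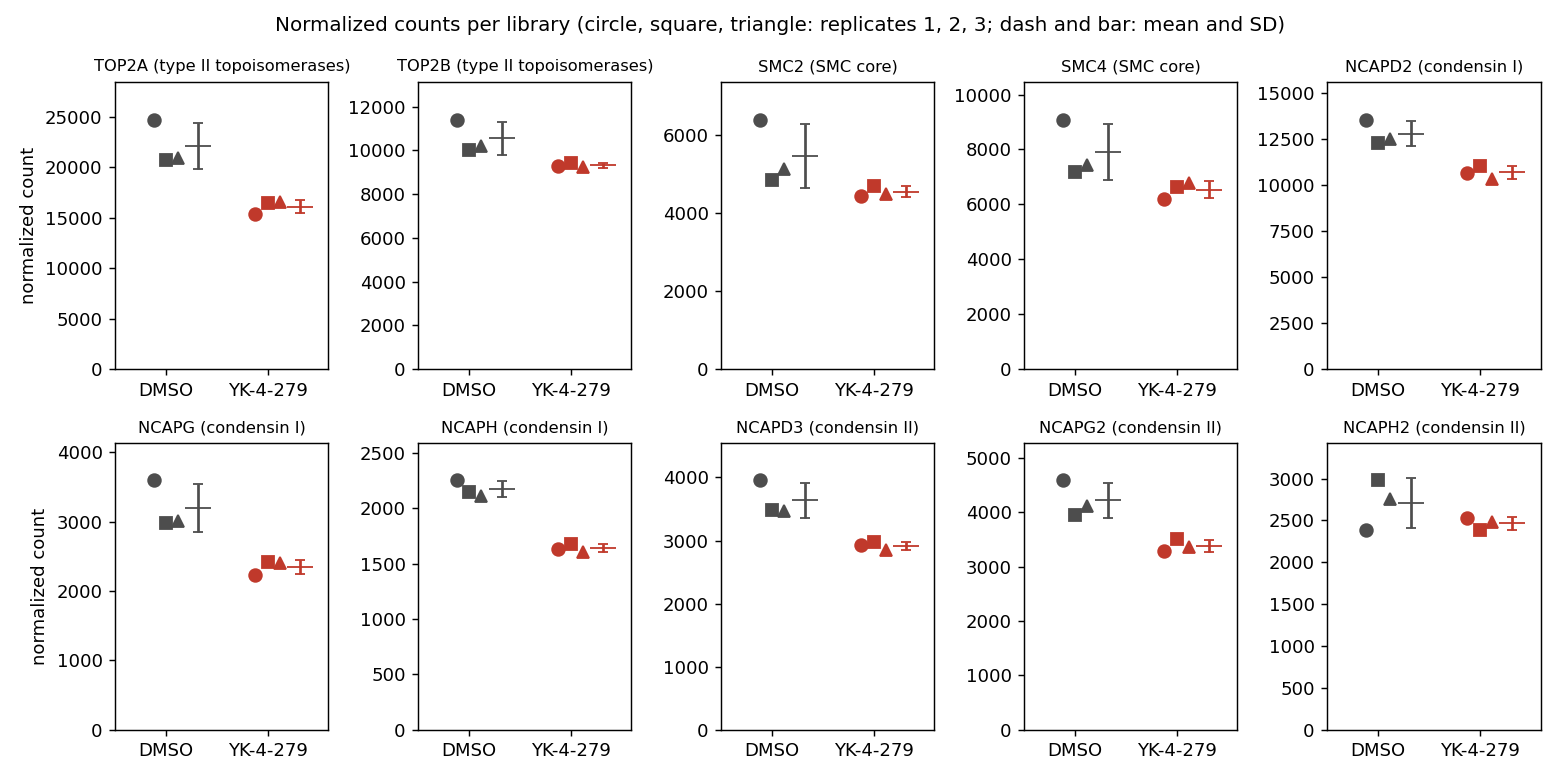
Normalized counts of the 10 genes in each library, DMSO in grey and YK-4-279 in red, with replicates 1, 2 and 3 as circle, square and triangle and the mean and SD (n = 3) beside them. The groups are separate in every panel but that of NCAPH2, and DMSO replicate 1 is the highest DMSO library in 9 panels and the lowest for NCAPH2.

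TOP2A had the highest level of the 10 genes per length of transcript and, over the 6 libraries, the lowest log2 fold change. NCAPH was lower than TOP2A when DMSO replicate 1 was left out (-0.38 against -0.37) and when the dependence on GC content and length was removed (-0.40 against -0.38), and these differences between the genes were not tested. The vehicle libraries, in the order of their replicate numbers, held 24740, 20775 and 20893 normalized counts of TOP2A. Those of the drug held 15331, 16510 and 16523, in the same order, which is kept for every gene. The groups did not overlap, and DMSO replicate 1 was well above the remaining vehicle libraries. On the log2 scale TOP2A changed by -0.45 (standard error 0.07, limma adjusted p = 0.00626), with a 95% confidence interval from -0.60 to -0.30. A change as low or lower was found for 1.29% of all genes tested. Leaving out DMSO replicate 1 gave -0.37 (limma adjusted p = 2.2e-09).

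TOP2B, the isoform of dividing and resting cells, had a smaller difference. It had 11406, 10041 and 10206 normalized counts under vehicle and 9295, 9417 and 9223 under YK-4-279, so that the groups lay close together but apart. The difference of -0.18 on the log2 scale (standard error 0.06, 95% confidence interval -0.31 to -0.05) did not pass the threshold over all genes (limma adjusted p = 0.122). It was -0.12 without DMSO replicate 1, its highest library, and then passed (limma adjusted p = 0.0297).

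SMC2 and SMC4 form the ATPase core of both condensins. SMC2 had 6380, 4838 and 5117 normalized counts under vehicle and 4432, 4689 and 4483 under YK-4-279. For SMC4 the values were 9082, 7181 and 7448 with DMSO and 6199, 6613 and 6788 with the drug. In both genes DMSO replicate 1 was far above every other library, and the remaining DMSO libraries lay close above the drug-treated ones. The log2 differences were -0.25 for SMC2 (standard error 0.09, limma adjusted p = 0.124) and -0.27 for SMC4 (standard error 0.08, limma adjusted p = 0.0842), and neither passed the threshold. Both differences, without DMSO replicate 1, shrank by more than 1.5 times, to -0.13 and -0.16, and both passed it (limma adjusted p = 0.0225 and 0.00387).

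The subunits particular to condensin I fell. NCAPG is a HEAT-repeat subunit that anchors the complex on DNA, and its libraries held 3592, 2980 and 3007 normalized counts under vehicle and 2231, 2415 and 2403 under YK-4-279. The highest drug-treated library was far below the lowest DMSO library, and the log2 fold change was -0.44 (standard error 0.08, limma adjusted p = 0.00911). NCAPH, the kleisin that closes the condensin I ring, had 2253, 2149 and 2113 normalized counts under vehicle and 1631, 1680 and 1607 under YK-4-279. It was the steadiest of the 10 genes among the DMSO libraries, with a coefficient of variation of 3.35%, and it changed by -0.41 on the log2 scale (standard error 0.06, limma adjusted p = 0.00528). The value was nearly the same when DMSO replicate 1 was left out, at -0.38 (limma adjusted p = 4.5e-08). NCAPD2, the other HEAT-repeat subunit, had 13557, 12293 and 12521 normalized counts under vehicle and 10675, 11030 and 10352 under YK-4-279. Its fall was the smallest of the condensin I subunits, at -0.26 on the log2 scale (standard error 0.06, limma adjusted p = 0.0275), although its groups were separate. NCAPG and NCAPD2 were at -0.35 and -0.22 when DMSO replicate 1 was left out, and both were still called. NCAPD2 lost its call when DMSO replicate 3 was left out (-0.27, limma adjusted p = 0.0730).

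In condensin II, the HEAT-repeat subunits NCAPD3 and NCAPG2 fell by like amounts. NCAPD3 had 3953, 3486 and 3470 normalized counts under vehicle and 2925, 2981 and 2853 under YK-4-279, which is -0.31 on the log2 scale (standard error 0.06, limma adjusted p = 0.0186). NCAPG2 had 4585, 3953 and 4120 with DMSO and 3284, 3509 and 3354 with the drug, which is -0.32 on the log2 scale (standard error 0.07, limma adjusted p = 0.0196). Both genes had separate groups, with DMSO replicate 1 the highest library, and they were at -0.25 and -0.26 when it was left out.

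NCAPH2, the condensin II kleisin, was the exception in its pattern across libraries. It had 2388, 2978 and 2752 normalized counts under vehicle and 2535, 2382 and 2487 under YK-4-279, and DMSO replicate 1 fell among the drug-treated libraries. The log2 difference was -0.13 (standard error 0.08, 95% confidence interval -0.29 to 0.04, limma adjusted p = 0.395), so that neither no change nor a fall like that of NCAPD2 lies outside the interval. It was -0.21 when DMSO replicate 1 was left out (limma adjusted p = 5.5e-04), a shift of over 1.5 times away from 0, where the other 9 genes shifted toward 0.

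**Figure D2:**
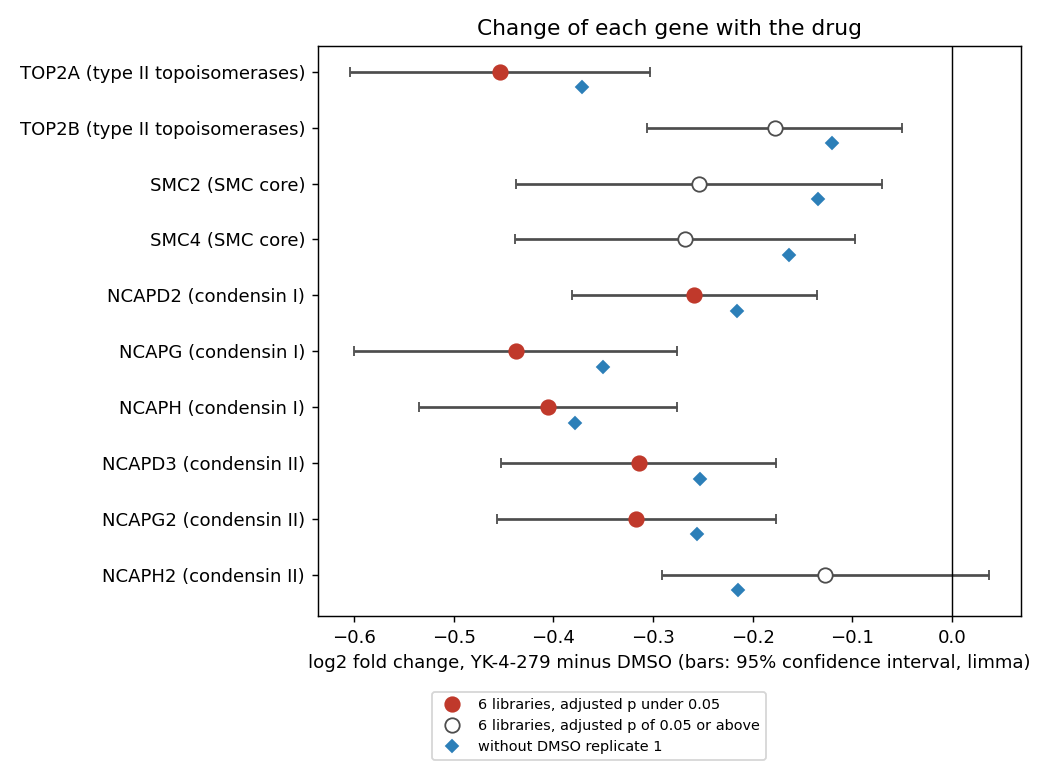
Log2 fold change of each gene, YK-4-279 minus DMSO, as points with 95% confidence intervals from limma over 6 libraries (red where the adjusted p was under 0.05), and as blue diamonds without DMSO replicate 1. All points and diamonds lie below 0, TOP2A, NCAPG and NCAPH lie lowest, and NCAPH2 is the only gene whose diamond lies further from 0 than its point.

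The deviation of DMSO replicate 1 broadly followed the base composition of the transcripts. Its log2 difference from the mean of DMSO replicates 2 and 3 was 0.36 for SMC2 and 0.31 for SMC4, whose canonical transcripts have a GC content of 37.4% and 36.6%. It was 0.13 for NCAPD2, at 51.6% GC, and -0.26 for NCAPH2, at 61.3% GC, the highest of the 10. NCAPH, at 46.1% GC, departed from this order with 0.08, below NCAPD2 and below NCAPD3 (0.18 at 47.3% GC). The same trend held over all genes tested, where the median difference was 0.21 for the 2240 genes with a GC content under 40% and -0.28 for the 2139 genes at 60% or more. Between these it was 0.11 for the 5212 genes from 40% and -0.11 for the 4114 genes from 50%. NCAPD2 thus had the opposite sign to the median at its GC content. When a smooth dependence on GC content and length was taken out of each library, all 10 genes were called lower in limma, against 10.7% of all genes with both measures. TOP2A was then at -0.38, SMC2 at -0.17 and NCAPH2 at -0.21 on the log2 scale.

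**Figure D3:**
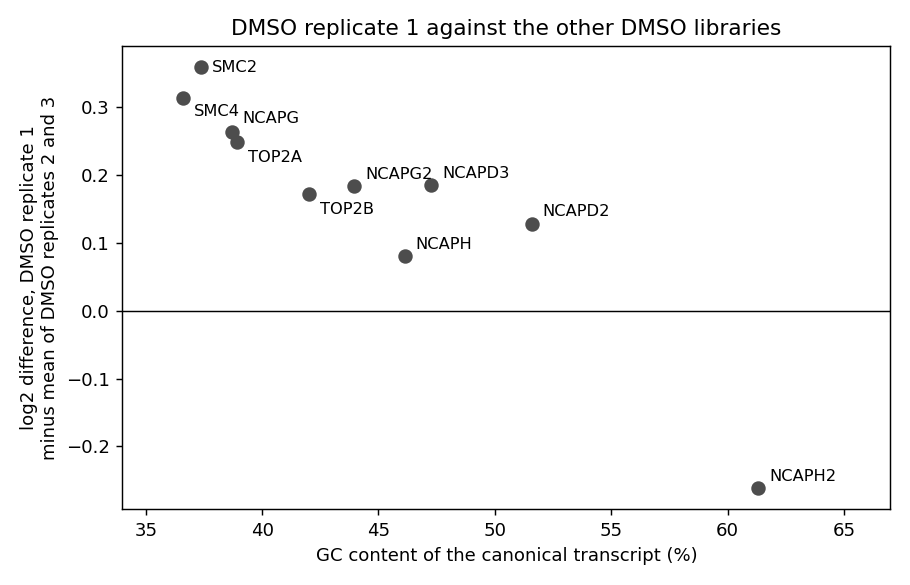
Log2 difference of DMSO replicate 1 from the mean of DMSO replicates 2 and 3 (vertical axis) against the GC content of the canonical transcript in percent (horizontal axis), 1 point per gene. SMC2 and SMC4, at the left, lie above 0.3, and NCAPH2, at the right, is the only gene below 0.

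Promoter sequences are shown for TOP2A, NCAPG and NCAPH, which had the lowest log2 fold changes of the 10 genes, and for TOP2B as the isoform with the smaller difference. The windows are the 250 bases before the RefSeq transcription start on GRCh38.p14, read 5′ to 3′ on the strand of the gene, and lie at chr17:40417897-40418146 (minus strand) for TOP2A, chr3:25664908-25665157 (minus strand, the outer of its starts) for TOP2B, chr4:17810729-17810978 (plus strand) for NCAPG and chr2:96335516-96335765 (plus strand) for NCAPH. Capitals mark matches on either strand to CCAAT (the CCAAT box bound by NF-Y), TTTGAA (the cell cycle homology region, CHR, bound by the DREAM and B-MYB complexes), TTCCCGC and TTGGCGC (cores of E2F sites) and CCGGAA (a core of ETS sites).
TOP2A: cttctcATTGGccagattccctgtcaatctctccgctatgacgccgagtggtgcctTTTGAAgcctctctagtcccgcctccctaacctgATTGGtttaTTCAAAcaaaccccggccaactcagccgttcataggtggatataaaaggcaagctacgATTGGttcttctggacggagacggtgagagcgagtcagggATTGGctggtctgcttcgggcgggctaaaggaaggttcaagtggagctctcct
TOP2B: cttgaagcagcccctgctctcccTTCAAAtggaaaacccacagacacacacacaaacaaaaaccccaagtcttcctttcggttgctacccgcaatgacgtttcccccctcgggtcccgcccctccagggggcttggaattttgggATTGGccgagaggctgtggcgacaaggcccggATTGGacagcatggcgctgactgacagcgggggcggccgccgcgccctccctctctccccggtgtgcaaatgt
NCAPG: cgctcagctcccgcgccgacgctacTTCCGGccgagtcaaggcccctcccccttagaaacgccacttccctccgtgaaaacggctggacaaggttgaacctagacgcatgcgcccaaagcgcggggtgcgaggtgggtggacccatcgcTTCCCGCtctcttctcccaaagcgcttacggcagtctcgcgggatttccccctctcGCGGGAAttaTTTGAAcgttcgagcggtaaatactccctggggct
NCAPH: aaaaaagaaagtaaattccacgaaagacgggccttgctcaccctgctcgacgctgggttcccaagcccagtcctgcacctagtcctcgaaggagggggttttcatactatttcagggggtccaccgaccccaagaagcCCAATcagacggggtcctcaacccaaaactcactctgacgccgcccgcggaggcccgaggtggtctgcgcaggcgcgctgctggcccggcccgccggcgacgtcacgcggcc

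The TOP2A window held 4 CCAAT matches and 2 CHR matches. The NCAPG window held an ETS core match that began 225 bases before the start, E2F core matches that began 101 and 45 bases before it, and a CHR match that began 35 bases before it. In TOP2B there were 2 CCAAT matches and 1 CHR match, and in NCAPH a single CCAAT match. RefSeq windows were found for 9 of the 10 genes, 13 windows in all because some genes have several starts. CCAAT was present in 5 of the 13 windows, against 32% of the 35116 windows of all genes, CHR in 5 of 13, against 13.3%, TTCCCGC in 2 of 13, against 5.52%, and CCGGAA in 2 of 13, against 14.5%. TTGGCGC was in none of them, against 2.56% of all windows. These are matches of letters, and the binding of no factor was measured.

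The ratio of each pair of paralogs within a library does not depend on the scaling of that library. TOP2A stood to TOP2B at 2.17, 2.07 and 2.05 in the DMSO libraries and at 1.65, 1.75 and 1.79 in the drug-treated libraries. The ratio was lower in every drug-treated library, by 0.28 on the log2 scale (standard error 0.04), with an exact permutation p of 0.1, the smallest that 3 against 3 libraries allow. The 4 pairs compared all had this p, also after Benjamini-Hochberg adjustment, so that none could pass 0.05. The difference for TOP2A over TOP2B was -0.25 without DMSO replicate 1.

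Among the condensins, NCAPH stood to NCAPH2 at 0.944, 0.722 and 0.768 with DMSO and at 0.644, 0.705 and 0.646 with the drug, a log2 difference of -0.28 (standard error 0.12). It was -0.16 without DMSO replicate 1, the DMSO library with the least NCAPH2. A ratio does not remove a deviation that follows GC content. This pair differs most in it, with 46.1% for NCAPH and 61.3% for NCAPH2. With the dependence on GC content and length removed, NCAPH was at -0.40 and NCAPH2 at -0.21. NCAPG stood to NCAPG2 at 0.784, 0.754 and 0.730 with DMSO and at 0.679, 0.688 and 0.717 with the drug, a log2 difference of -0.12 (standard error 0.04), and of -0.09 without DMSO replicate 1. The third pair went the other way. NCAPD2 stood to NCAPD3 at 3.43, 3.53 and 3.61 with DMSO and at 3.65, 3.70 and 3.63 with the drug, a log2 difference of 0.06 (standard error 0.02), with 0.04 without DMSO replicate 1. In these libraries the condensin I partner was thus lower relative to its condensin II paralog for the kleisin and for NCAPG, and higher for NCAPD2. None of these directions could pass in the permutation test. For NCAPD2 the groups were barely apart, 3.61 in DMSO replicate 3 against 3.63 in drug-treated replicate 3. Counting error for NCAPD3, in its library with the fewest reads, was 1.91%. How many other gene pairs have separate groups was not counted.

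**Figure D4:**
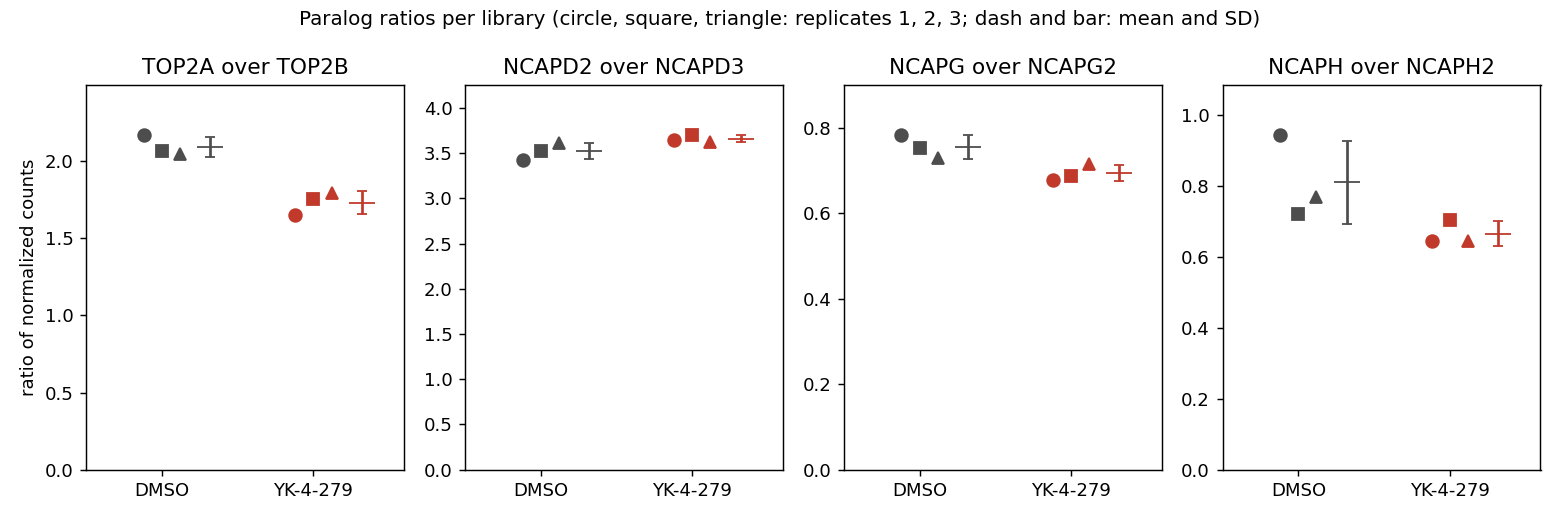
Ratio of normalized counts of 4 paralog pairs in each library, DMSO in grey and YK-4-279 in red, with the mean and SD (n = 3) beside the points. The groups are separate in each panel, with the drug-treated libraries lower for TOP2A over TOP2B, NCAPG over NCAPG2 and NCAPH over NCAPH2 and, by a narrow margin, higher for NCAPD2 over NCAPD3.

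Levels were compared between genes per kilobase of the canonical transcript. With DMSO, TOP2A was highest at 3887 ± 396 normalized counts per kilobase (SD, n = 3), followed by NCAPD2 at 2651 ± 140, TOP2B at 1815 ± 128 and SMC4 at 1545 ± 201. TOP2A and NCAPD2 each stood apart. The ranges of TOP2B and SMC4 overlapped across the DMSO libraries only through DMSO replicate 1, and TOP2B was the higher in every library. NCAPG2, SMC2, NCAPH2 and NCAPG followed at 1042 ± 80.8, 919 ± 139, 811 ± 89.2 and 696 ± 75.5, each overlapping its neighbour, and without DMSO replicate 1 SMC2 and NCAPH2 were the only neighbours of the 10 that still overlapped. NCAPD3, at 493 ± 37.2, and NCAPH, at 360 ± 12, were the lowest and did not overlap. The order of the 10 means was the same with the drug, where TOP2A was at 2831 ± 120 and NCAPH at 272 ± 6.17 normalized counts per kilobase. The place of SMC2 above NCAPH2 with DMSO rested on DMSO replicate 1. SMC2 was at 816 and 863 in DMSO replicates 2 and 3, and NCAPH2 at 892 and 825. The RNA of NCAPD2 was thus several times that of the other particular condensin I subunits per length in both groups.

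Across the 6 libraries the genes moved together, apart from NCAPH2. The median Pearson correlation of log2 values was 0.96 over the 36 pairs without NCAPH2 and 0.20 over the 9 pairs with it. These are descriptions over 6 libraries that include both the treatment and the deviation of DMSO replicate 1. Among 10698 other genes with a mean of at least 100, those most like TOP2A were NCAPG (r = 0.999), the condensin I subunit, PHTF2 (r = 0.999), RANBP17 (r = 0.999), TYMS (r = 0.998), thymidylate synthase, and TMPO (r = 0.998), a nuclear lamina protein. Those most like TOP2B were TMEM167A, MOB1A, SFXN1, SF3B3 and ITGAV, with r from 0.996 to 0.998.

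Related lists were chosen by function, and their calls depended on the libraries as those of the 10 genes did. Of the 13 genes called in the 4 lists, none passed an adjusted p of 0.05 in limma without drug-treated replicate 1 or 2. In these fits 21 and 23 listed genes had an unadjusted p under 0.05, but how many of all genes did was not counted. Without drug-treated replicate 3 only ESCO2 and CDK1 passed the threshold. Of 15 mitotic chromosome factors that work beside condensins, 7 fell and none rose at an adjusted p under 0.05 in limma, against 2.15% lower and 1.26% higher over all genes tested, and the median log2 fold change was -0.28. MKI67, which coats mitotic chromosomes, averaged 15763 ± 1388 in the vehicle libraries and 11922 ± 238 normalized counts in those of the drug (SD, n = 3), a fall at -0.40 on the log2 scale (limma adjusted p = 0.00724). CDK1, the kinase that drives entry into mitosis and phosphorylates condensins, changed by -0.46 (limma adjusted p = 0.00741), and ERCC6L, a translocase of ultrafine anaphase bridges, by -0.37 (limma adjusted p = 0.0184). The number called lower in limma was 11 of the 15 without DMSO replicate 1, against 8.46% of all genes. With the replicate block MKI67, CDK1 and CCNA2 kept their calls, CCNA2 being named after its values were seen, and ERCC6L was at a limma adjusted p of 0.0511.

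Cohesin, the ring that holds sister chromatids together and is built on SMC1A and SMC3, was represented by 15 genes of the complex and its regulators. Of these 3 were called lower and none higher in limma, against 2.15% lower over all genes, with a median log2 fold change of -0.12. When DMSO replicate 1 was left out 5 were called lower in limma, against 8.46% of all genes, with a median of -0.02. ESCO2, the acetyltransferase that establishes cohesion in S phase, averaged 857 ± 89.3 in the vehicle libraries and 566 ± 10.9 normalized counts in those of the drug (SD, n = 3), a fall at -0.59 on the log2 scale (limma adjusted p = 0.00360). CDCA5, the sororin that protects cohesion, changed by -0.32 (limma adjusted p = 0.0153) and SMC1A by -0.29 (limma adjusted p = 0.0152). CDCA5 did not pass without DMSO replicate 3 (limma adjusted p = 0.0738), nor SMC1A with the replicate block (limma adjusted p = 0.0530). STAG2, with the highest mean, was at -0.27 (limma adjusted p = 0.0778) and did not pass, and without DMSO replicate 1 it was at -0.16 and passed (limma adjusted p = 0.00291).

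In the complex of SMC5 and SMC6, with 8 of 9 listed genes tested, 6 log2 fold changes were below 0 and 2 above it. Only SMC5 was called lower, at -0.33 on the log2 scale (limma adjusted p = 0.0381). SLF1 was at -0.35 and did not pass (limma adjusted p = 0.0646). SMC5 did not pass with TMM scaling, quantile normalization or the replicate block (limma adjusted p = 0.0503, 0.0811 and 0.0763). The member with the highest mean, SLF2, was at -0.11 (limma adjusted p = 0.381). The number called lower in limma was 3 of the 8 without DMSO replicate 1, against 8.46% of all genes, where with 6 libraries it was 2.15%. Of 11 other topoisomerases and their partners, the helicase BLM and its cofactor RMI2 were called lower, at -0.44 and -0.36 (limma adjusted p = 0.0248 and 0.0254), against 2.15% of all genes tested. Neither passed with the replicate block (limma adjusted p = 0.0550 and 0.0765), BLM did not pass after quantile normalization (limma adjusted p = 0.0620), and RMI2 did not pass without DMSO replicate 3 (limma adjusted p = 0.0985). TOP3A, with the highest mean of this list, was at -0.14 (limma adjusted p = 0.183), and without DMSO replicate 1 it was at -0.15 and passed (limma adjusted p = 0.00463). In that fit 3 genes of the list were called lower and 1 higher in limma, against 1179 lower and 644 higher of the 13930 genes tested. TOP1, the main type I topoisomerase, was singled out after its values were seen: it had 7422, 6760 and 6922 normalized counts under vehicle and 7395, 7716 and 7588 under YK-4-279, a log2 difference of 0.11 (standard error 0.06, limma adjusted p = 0.332). TOP1 was at 0.15 when DMSO replicate 1 was left out and passed the threshold in the higher direction (limma adjusted p = 0.00780), while TOP2A and TOP2B were both called lower.

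**Figure D5:**
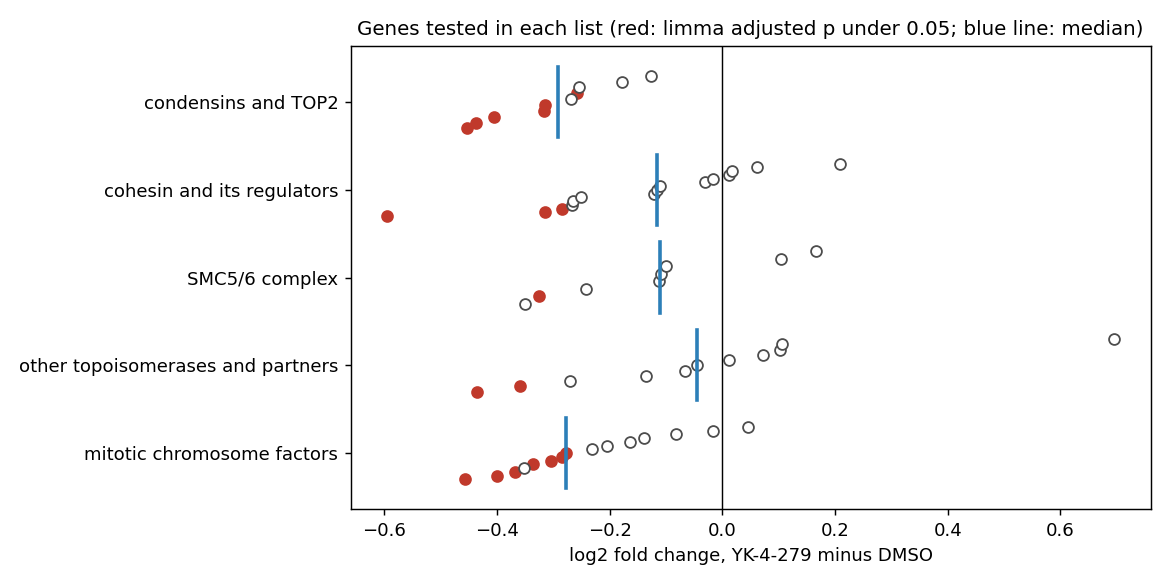
Log2 fold change, YK-4-279 minus DMSO, of every tested gene in the condensin and topoisomerase II set and in 4 related lists, red where the limma adjusted p was under 0.05, with blue lines at the medians. The median of the 10 genes (-0.29) lies beside that of the mitotic chromosome factors (-0.28), and no gene at the right of 0 is red.

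The 10 genes lie on 9 chromosomes, with TOP2B and SMC4 both on chromosome 3, so that no single neighbourhood holds them. On hg38 in GENCODE 44, TOP2A, a protein-coding gene, spans chromosome 17 from 40388525 to 40417896, NCAPG chromosome 4 from 17810979 to 17844865, NCAPH chromosome 2 from 96335766 to 96377091 and NCAPH2 chromosome 22 from 50508224 to 50524780. Coding genes on the opposite strand overlap SMC4 (IFT80 and TRIM59), NCAPD2 (MRPL51), NCAPG (LCORL), NCAPD3 (JAM3 and VPS26B) and NCAPH2 (SCO2). The kit was directional, but whether the counting used strand is not given in the sources used here, so that reads shared with these partners cannot be told apart.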

How the data were processed

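mRNA of 6 Rh30 samples (3 YK-4-279, 3 DMSO, grouped by their titles) was sequenced as paired-end reads from a directional kit. Trimming with BBDuk, alignment to hg38 with STAR 2.7.9a, counting per gene and normalization with DESeq2 (1.44.0 in the submitters' processing notes) were done by the authors. Each deposited value is a normalized signal, the reads on a gene divided by 1 factor per library. Undoing the division gave whole reads for 100% of values (tolerance 0.01). The table has 35269 entries, of which 1 has no gene name (6 reads at most in a library) and was left out.

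limma 3.58.1 (lmFit, eBayes with trend, R 4.3.3) was run on log2(normalized count + 1) for 13930 genes whose mean was 10 or more, two-sided, with Benjamini-Hochberg adjustment. Fold changes are on this scale. Ratios were tested by exact permutation in scipy 1.17.1. Length and GC content came from GENCODE 44 canonical transcripts, which covered 98.4% of genes tested, and promoters from RefSeq (GRCh38.p14). The alternatives were other pseudocounts (0.5 and 10), filters (none, or a mean of at least 100) and scalings (TMM and quantile), leaving out each library, a replicate block, eBayes with no trend, subtracting a spline fit on length and GC content from each library (5 degrees of freedom), and, on recovered reads, DESeq2 1.42.0 and edgeR 4.0.16. On simulated reads over 13930 genes, limma recovered 174 of 200 genes changed by 1 on the log2 scale, with 6 false calls. Of 200 genes changed by 0.5 it recovered 138, with 7 false calls. Recovery of smaller changes, such as those of the 10 genes (-0.45 to -0.13), was not tested. Recovery with a deviation between libraries that follows GC content was not tested either.

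The members and lists were chosen with earlier results of these data known. Named genes are the 10 members, in each list the member with the highest mean and up to 3 with the largest change among those with separate groups, a mean of 100 or more and an adjusted p under 0.05, and the 5 genes most correlated with TOP2A and with TOP2B.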

Additional observations from a re-analysis of the deposited data

How the results depend on the processing

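The 10 log2 fold changes were below 0 in all 19 alternatives run, and which genes passed the threshold depended on the setting. The number of the 10 genes called in limma was 6, and it was 4 after quantile normalization, 0 when eBayes had no trend (8 with an unadjusted p under 0.05), 3 with a replicate block and 10 after removal of the trend on GC content and length. For the unadjusted p-values, here and for the related lists below, no count over all genes was made. edgeR called 6 of the 10 genes, and 465 genes in all (206 higher, 259 lower). DESeq2 called 7 of the 10, and 635 of 11769 genes in all (239 higher, 396 lower). Leaving out single libraries gave 0 to 10 of the 10 genes in limma. The number of all genes called was 475, and it was 277 after quantile normalization (132 higher, 145 lower, against 176 and 299), 33 when eBayes had no trend (30 higher, 3 lower), 180 with a replicate block (79 higher, 101 lower), 1968 after removal of the trend (498 higher, 1470 lower), and 19 to 1823 when single libraries were left out. Higher calls outnumbered lower ones without drug-treated replicate 1 (15 and 4), 2 (16 and 7) or 3 (28 and 18). Of the genes in the 4 related lists, 13 were called, all lower, and the number was 8 after quantile normalization, 0 when eBayes had no trend (20 with an unadjusted p under 0.05), 5 with a replicate block, 24 after removal of the trend (1 higher, TOP1, at 0.15 with a limma adjusted p of 0.00961), and 0 to 23 when single libraries were left out. In 2 alternatives added after seeing the data, edgeR without DMSO replicate 1 called 10 of the 10 genes, 23 of the listed genes (1 higher) and 1804 genes in all, and limma without it and with the trend removed called 10, 26 (2 higher) and 2480. The 23 called by limma without DMSO replicate 1 also hold 1 higher. The cause of these changes was not tested.

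Samples with the same replicate number did not deviate together from their group means (r = -0.099, -0.027 and -0.027), so that the numbers are not taken as pairs. With the replicate block, TOP2A, NCAPG and NCAPH were still called, and NCAPD2, NCAPD3 and NCAPG2 had limma adjusted p-values of 0.0661, 0.0511 and 0.0584. With quantile normalization NCAPD2 (-0.18) and NCAPG2 (-0.25) lost their calls. DESeq2 also called SMC4 (-0.26).

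When single libraries were left out, the log2 ratio differences went from -0.30 to -0.24 for TOP2A over TOP2B, from 0.04 to 0.07 for NCAPD2 over NCAPD3, from -0.15 to -0.09 for NCAPG over NCAPG2 and from -0.36 to -0.16 for NCAPH over NCAPH2. Counting error in the library with the fewest reads on the gene was 2.54% of the value for NCAPH, beside a coefficient of variation of 3.35% among the DMSO and 2.27% among the drug-treated libraries, and 1.07% for TOP2B, beside 7.06% and 1.05%, so that depth may add to the spread of these genes.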
